A study of Mus musculus with 14 samples.

Results

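The AP-1 transcription factor genes are described here across mouse embryo fibroblasts (MEFs) with and without p53, before and after DNA damage. The set was taken by symbol and holds 10 of the 20207 genes in the expression files: Fos, Fosb, Fosl1, Fosl2, Jun, Junb, Jund, Atf3, Maff and Mafk. All 10 were found. MEFs are fibroblasts grown from mouse embryos, here of strain 129/Sv, in medium with fetal calf serum. Wild-type and p53-/- (p53-null) cells were either left untreated or given doxorubicin, a topoisomerase II poison that breaks DNA, at 0.2 µg/ml for 6 h. Untreated wild type and treated wild type had 3 libraries each, and untreated p53-null and treated p53-null had 2 each. RNA was sequenced at the 3' ends of poly(A) transcripts. The labels number the replicates without saying whether they are separate embryos or cultures. The p-values therefore reflect the variation among these libraries, which may be technical in part. Sex-linked transcripts, given below, differed between some libraries of the same group. Which part of Trp53, the gene encoding p53, is deleted is not given in the sources used here.

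AP-1 is a dimer of basic leucine zipper (bZIP) proteins that binds DNA at sites related to TGACTCA. Jun proteins pair with each other or with Fos proteins, whereas Fos proteins need a Jun partner. Atf3 belongs to the ATF branch of the same fold and also pairs with Jun proteins, and the small Maf proteins Maff and Mafk lack an activation domain and pair with CNC factors such as Nrf2. Several of these genes are immediate early genes: in fibroblasts, serum, growth factors and stress kinases switch them on within minutes through SRF and the ternary complex factors, and their transcripts are short-lived. Atf3 is known as a stress-induced gene and as a p53 target in some cells.

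Levels are given as CPM, a read count adjusted for the depth of its library. Changes are log2 differences of CPM plus 0.5 with their standard error (SE) from limma-trend, a linear model fitted over all 11090 genes that reached 1 CPM in 2 or more libraries. The p-values are adjusted over those genes by the Benjamini-Hochberg method, and a gene is called past the threshold at adjusted p under 0.05. All 10 members were tested. Atf3 passed the filter through the p53-null libraries alone, since 0 of the 6 wild-type libraries reached 1 CPM. Because a 3' library counts transcript ends and the files hold no transcript lengths, levels are compared between libraries and not between genes.

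Wild-type libraries held 9768374 to 11770448 reads and p53-null libraries 18099508 to 25970157, so depth went with genotype in every comparison of the genotypes. Within p53-null cells depth also went with treatment, at 18099508 and 18698205 reads untreated and 25252375 and 25970157 treated. The p53-null response and the difference of responses carry this too, and its part in them was not tested. The label check used Cdkn1a, the p53 target gene for the cell-cycle inhibitor p21. It had 554 to 760 CPM in untreated wild type and 4070 to 5051 CPM in treated wild type. In p53-null libraries 1 and 2 it had 30.7 and 29.9 CPM untreated and 54.6 and 46.0 CPM treated. Trp53 itself was read in every library, at 19.9 to 25.4 CPM in untreated and 23.7 to 43.4 CPM in treated wild type. In p53-null libraries 1 and 2 it was 67.8 and 75.6 CPM untreated and 29.9 and 45.6 CPM treated. A 3' tag says nothing of a deletion elsewhere in the gene. All 14 fibroblast markers had reads in each group, with a summed level of 5149 to 10736 CPM over the libraries. Macrophage and blood markers stood apart in wild type. Their sum over 15 genes was 98.9, 512 and 532 CPM in untreated wild-type libraries 1, 2 and 3, and 45.4, 222 and 241 CPM in the treated libraries of the same numbers. In p53-null libraries it was 87.8 to 127 CPM. The red cell genes Hba-a1 and Hbb-b1 had 0 reads in wild type. Sex-linked transcripts differed between libraries of the same group. Xist was 0.672 CPM in untreated p53-null library 2 and 13.0 CPM in treated p53-null library 2, with Ddx3y at 5.02 and 0.390 CPM, so these same-numbered libraries do not hold the same embryo or mix of embryos. Member results are also given without both. In wild type Ddx3y went with the number, at 18.9 and 12.7 CPM in untreated and treated library 1 and at most 0.823 CPM in the others.

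In wild-type cells 2 of the 4 Fos family genes rose with doxorubicin. Fosl1, which encodes Fra-1, rose 2.16-fold and Fosb, which encodes FosB, rose 2.29-fold. Fos had a larger fitted change with a wider spread and did not pass, and neither did Fosl2, encoding Fra-2. None of the 3 Jun genes, Atf3 or the small Maf genes passed the threshold. In all, 2 of 10 members rose and 0 fell, against 7.97% of all tested genes higher and 4.64% lower (12.6% in either direction). The members' median log2 difference was 0.17, beside 0.04 for all tested genes.

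Fosl1 stood at 84.5, 109 and 98.4 CPM in untreated wild-type libraries 1, 2 and 3, and at 172, 263 and 203 CPM in the treated ones. Every treated library lay above every untreated one, and the rise within a replicate number was 2.04-fold, 2.41-fold and 2.06-fold. The log2 difference was 1.11 (SE 0.20, n = 3 and 3, limma adjusted p = 0.00598). In bulk RNA a change in the share of expressing cells and a change in the level per cell cannot be told apart. Fosb stood at 7.91, 13.6 and 9.67 CPM in untreated libraries 1, 2 and 3 and at 21.0, 28.3 and 22.9 CPM in treated ones, again without overlap. Its log2 difference was 1.20 (SE 0.27, limma adjusted p = 0.0188), a 2.29-fold rise. The summed macrophage and blood markers were lower after treatment at each number, as given above, and their part in these rises was not tested.

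**Figure D1:**
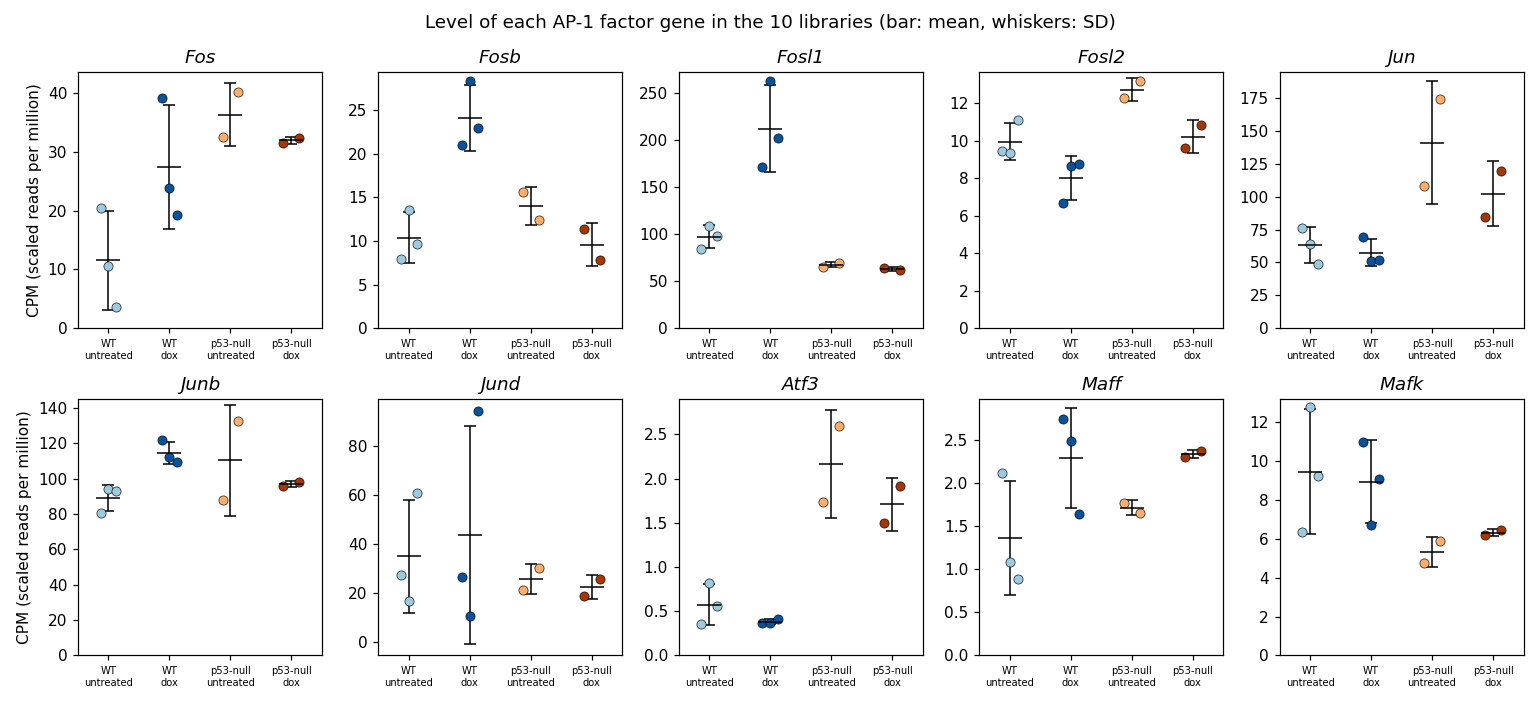
CPM of each AP-1 factor gene (vertical axis, linear, one panel per gene) in the 4 groups (horizontal axis). Points are libraries in the order of their numbers, the long bar is the mean and whiskers are the SD. Fosl1 and Fosb are highest in treated wild type with no overlap with any other group, while Jund ranges from 10.7 to 94.4 CPM within treated wild type.

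Fos, the c-Fos gene, was read at 20.4, 10.5 and 3.67 CPM in untreated wild-type libraries 1, 2 and 3, and at 39.2, 23.8 and 19.2 CPM in treated ones. Treated library 3 lay below untreated library 1, so the groups overlapped, although each number rose on its own by 1.92-fold, 2.26-fold and 5.24-fold. The log2 difference of 1.44 (SE 0.50) did not pass (limma adjusted p = 0.0950). Wild-type libraries of the same number deviated from their group means together, and with the replicate number as a block Fos passed (limma adjusted p = 0.00782), as Fosb and Fosl1 did, in a fit where 23.2% of all tested genes passed. Over all alternatives the adjusted p for Fos ran from 0.00552 to 0.249. Leaving out untreated wild-type library 1 gave a log2 difference of 1.98 (adjusted p = 0.0202), and leaving out untreated wild-type library 3 gave 0.82 (0.249), so the size of the Fos difference rested on these libraries.

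The Fosb call was lost in 4 alternatives in which the log2 difference stayed close to 1.20. It was 1.08 (adjusted p = 0.0541) without treated wild-type library 2 and 1.16 (0.0699) without untreated wild-type library 3. It was 1.11 (0.0546) with only the wild-type libraries fitted and 1.16 (0.0549) without both p53-null libraries numbered 2. The adjusted p over 24 alternatives ran from 0.00410 to 0.0699. Fosl1 passed under all 24, at adjusted p from 0.00135 to 0.0334.

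**Figure D2:**
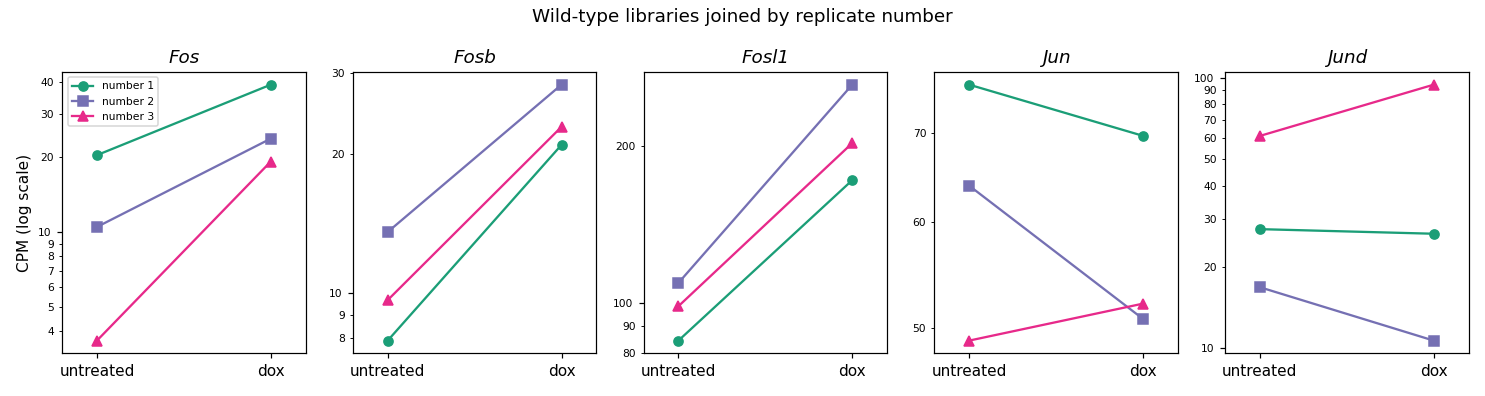
CPM on a log axis of 5 AP-1 factor genes in the 6 wild-type libraries, with untreated and treated libraries of the same number joined. Fos, Fosb and Fosl1 rise along every line, whereas Jun moves within 48.9 to 76.1 CPM and the Jund lines keep their order at levels far apart.

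None of the remaining members passed in wild type. Junb, encoding a Jun protein with weaker activation than c-Jun, was 80.8, 93.9 and 93.1 CPM untreated and 122, 112 and 109 CPM treated. These groups did not overlap, but the log2 difference of 0.36 (SE 0.19) did not pass (limma adjusted p = 0.256). Of all tested genes 16.9% were higher and 12.2% lower without overlap in this comparison (29.1% together). Among the 10 members 3 were higher in this sense (Fosb, Fosl1, Junb) and 1 lower (Fosl2). Fosl2 had 9.33 to 11.1 CPM untreated and 6.68 to 8.74 CPM treated, a log2 difference of -0.30 (SE 0.23, 95% interval -0.80 to 0.20).

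Jun, the c-Jun gene, had 48.9 to 76.1 CPM untreated and 50.8 to 69.7 CPM treated. Its log2 difference of -0.12 had a 95% interval of -0.70 to 0.46. Jund was the most variable member. It had 27.6, 16.8 and 61.0 CPM in untreated libraries 1, 2 and 3 and 26.5, 10.7 and 94.4 CPM in treated ones, so that library number separated its levels more than treatment did. Its interval of -1.56 to 1.51, from the fit without the replicate block, spans changes of more than 2-fold in either direction. With the block its SE was 0.24 rather than 0.69, and it did not pass (limma adjusted p = 0.958).

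Atf3 had few reads in wild type, 3, 9 and 5 untreated and 4, 4 and 4 treated. The untreated to treated ratio of summed, depth-scaled reads was 1.56 with an exact 95% counting interval of 0.704 to 3.59, which covers counting error only. The log2 difference, treated minus untreated, was -0.26 (SE 0.25, 95% interval -0.82 to 0.29) and did not pass (limma adjusted p = 0.538). No rise of Atf3 with doxorubicin was detected, at a level where the added 0.5 CPM understates folds. Maff had 8 to 18 reads untreated and 16 to 30 treated, or 0.890 to 2.12 and 1.65 to 2.75 CPM, and rose within each number by 1.29-fold, 2.29-fold and 1.85-fold. Its log2 difference of 0.62 (SE 0.30) did not pass (limma adjusted p = 0.224). Mafk had 6.37 to 12.8 CPM untreated and 6.73 to 11.0 CPM treated, a difference of -0.05 (SE 0.30).

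In p53-null cells no member passed with doxorubicin, and neither did any other gene (0% of 11090 by limma-trend, with 1246 genes but 0 members at an unadjusted p under 0.05, and 0 members by limma-voom). Fosl1 was 65.6 and 69.2 CPM in untreated p53-null libraries 1 and 2 and 64.4 and 61.6 CPM in treated ones. Its log2 difference was -0.10 with a 95% interval of -0.64 to 0.44. Fosb was 15.6 and 12.4 CPM untreated and 11.3 and 7.81 CPM treated, a difference of -0.54 (95% interval -1.28 to 0.20). Fos was 32.5 and 40.1 CPM untreated and 31.5 and 32.3 CPM treated, at -0.18 (interval -1.55 to 1.19). With 2 libraries a group, treated and untreated values did not overlap for 52.7% of all tested genes (27.1% higher and 25.6% lower). Among the 10 members 4 were lower in this sense (Fos, Fosb, Fosl1, Fosl2) and 2 higher (Maff, Mafk).

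The other members in p53-null cells had log2 differences of -0.44 for Jun, -0.31 for Fosl2, -0.26 for Atf3, -0.19 for Jund, -0.15 for Junb, 0.23 for Mafk and 0.36 for Maff. Jun was 108 and 174 CPM untreated and 84.8 and 120 CPM treated, so the groups overlapped. Atf3 had 37 and 58 reads untreated and 39 and 59 treated. The members' median log2 difference was -0.19, beside -0.04 for all tested genes.

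**Figure D3:**
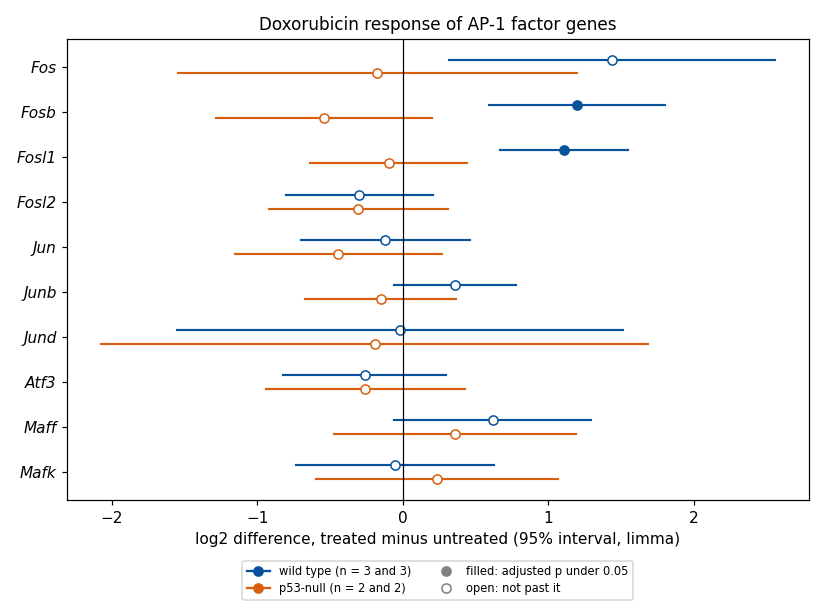
Fitted log2 difference between treated and untreated cells (horizontal axis, with 95% interval) for each member, in wild type and in p53-null cells. Filled points passed adjusted p under 0.05. The Fosb and Fosl1 points stand at 1.20 and 1.11 in wild type and at -0.54 and -0.10 in p53-null cells.

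Whether the responses differ between genotypes was tested directly as an interaction. No member passed (0 of 10, against 2.26% of all tested genes, 1.72% higher and 0.541% lower), and 2 members had an unadjusted p under 0.05. The wild-type response exceeded the p53-null one by 1.74 (log2) for Fosb (SE 0.43, 95% interval 0.78 to 2.70, limma adjusted p = 0.0672). For Fosl1 it was 1.21 (SE 0.31, interval 0.51 to 1.90, limma adjusted p = 0.0741), and for Fos 1.61 (SE 0.79, interval -0.16 to 3.38, limma adjusted p = 0.274). With the replicate number as a block in both genotypes Fosb and Fosl1 passed (adjusted p = 0.0187 and 0.0240), in a fit where 9.41% of all tested genes passed. Same-numbered libraries could be checked for pairing in wild type only. An alternative chosen after seeing the data put the block in wild type alone. Fos, Fosb and Fosl1 then passed (limma adjusted p = 0.0484, 0.0249 and 0.0234), beside 7.55% of all tested genes. Over all alternatives the highest adjusted p was 0.588 for Fos, 0.340 for Fosb and 0.359 for Fosl1. The interaction was near 0 for Fosl2 (0.01, interval -0.79 to 0.80) and 0.32 for Jun (interval -0.60 to 1.24). It was 0.51 for Junb, 0.26 for Maff, 0.17 for Jund, -0.01 for Atf3 and -0.29 for Mafk.

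Between untreated cells, Fos, Jun and Atf3 were lower in wild type than in p53-null cells. These were 3 of the 10 members, and 0 were higher, in a comparison where 19.8% of all tested genes were lower and 12.7% higher in wild type. The share of members past the threshold is thus near that of all genes (32.5% in either direction). Atf3 could be tested only because it was above the filter in p53-null cells, so its call follows in part from the filter.

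The sequence just before the start site is shown for these members because they differed in the same direction in untreated cells. The 150 bases before each start are from RefSeq promoter windows on GRCm38.p6, 5′ to 3′ on the strand of the gene, at chr12:85473740-85473889 (+) for Fos, chr4:95052223-95052372 (-) for Jun and chr1:191183334-191183483 (-) for Atf3. Capitals mark matches, on either strand, to TGACGT (the core of the cAMP response element), TGACTCA (the AP-1 site) or TGACATCA (a related ATF and Jun site).
Fos: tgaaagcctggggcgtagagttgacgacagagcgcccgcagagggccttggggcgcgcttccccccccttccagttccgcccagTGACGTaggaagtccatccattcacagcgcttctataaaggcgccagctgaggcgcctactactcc
Jun: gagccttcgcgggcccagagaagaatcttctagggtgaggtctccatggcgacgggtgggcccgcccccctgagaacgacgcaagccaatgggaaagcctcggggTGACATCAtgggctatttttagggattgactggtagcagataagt
Atf3: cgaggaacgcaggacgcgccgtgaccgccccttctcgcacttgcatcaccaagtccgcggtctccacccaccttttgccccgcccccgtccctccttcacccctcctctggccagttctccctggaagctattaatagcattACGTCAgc

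Fos held TGACGT at bases 66 to 61 before its start and Atf3 held it on the other strand at bases 8 to 3, while Jun held TGACATCA at bases 45 to 38. In windows of 250 bases before a start, TGACGT was present in 6.47%, TGACATCA in 2.93% and TGACTCA in 4.46% of 32851 windows. TGACGT read on both strands overlaps itself in the full, palindromic element. A window was at hand for 9 members (11 windows), not for Fosl1. Of the other members only Maff held any of these motifs, TGACGT and TGACATCA in different windows. Maff did not pass between untreated cells (log2 difference -0.30, limma adjusted p = 0.512). Fosl2, also lower in untreated wild type without overlap, held none of them. A link between the motifs and the differences was not tested. No member window held TGACTCA, a p53 half-site (present in 7.13% of all windows) or a CArG box, the SRF site (1.47%). Sites more than 250 bases before a start, or after it, were not searched, so a gene may hold these sites elsewhere. A match is a string of letters and not a measured site.

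Fos had 3.67 to 20.4 CPM in untreated wild type and 32.5 and 40.1 CPM in untreated p53-null cells, with no overlap. The log2 difference was -1.89 (SE 0.56, n = 3 and 2, limma adjusted p = 0.0299), or 3.71-fold lower. Jun had 48.9 to 76.1 CPM against 108 and 174 CPM, also apart, a difference of -1.14 (SE 0.29, limma adjusted p = 0.0174). Atf3 summed to 17 reads in untreated wild type and to 95 in untreated p53-null cells. The depth-scaled ratio of p53-null to wild type was 3.64, with an exact 95% counting interval of 2.16 to 6.52, and the log2 difference was -1.31 (SE 0.28, limma adjusted p = 0.00962). Without overlap between groups, 35.4% of all tested genes were lower and 28.8% higher in untreated wild type (64.2% together), and 4 members were lower (Fos, Fosl2, Jun, Atf3) and 2 higher (Fosl1, Mafk). The summed macrophage and blood markers were 98.9, 512 and 532 CPM in untreated wild-type libraries 1, 2 and 3, where Fos was 20.4, 10.5 and 3.67 CPM. They were 115 and 105 CPM in untreated p53-null libraries 1 and 2. Their part in the differences between genotypes, untreated or treated, was not tested.

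All 3 calls between untreated cells were lost when either untreated p53-null library was left out. The library that remains then has no replicate and is assumed to vary like the other groups, so a lost call there does not show a smaller difference. Without library 1 the log2 differences were -2.04 for Fos (adjusted p = 0.114), -1.48 for Jun (0.0512) and -1.54 for Atf3 (0.0512). Without library 2 they were -1.76 (0.152), -0.81 (0.156) and -1.08 (0.0923). Without untreated wild-type library 3 the Fos difference was -1.27 (0.0619), more than 1.5 times smaller as a fold, and that of Jun was -0.97 (0.0637). Without untreated wild-type library 2 that of Fos was -1.97 (0.0609), and without library 1 it was -2.44 (0.00793). Over all alternatives adjusted p ran from 0.00793 to 0.206 for Fos, 0.00594 to 0.175 for Jun and 0.00442 to 0.108 for Atf3, highest without both p53-null libraries numbered 2. The direction held under each.

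Fosl1 pointed the other way from Fos and Jun, at 84.5 to 109 CPM in untreated wild type and 65.6 and 69.2 CPM in untreated p53-null cells. Its difference of 0.52 (SE 0.22) did not pass (limma adjusted p = 0.0937), but did with median-of-ratios scaling (0.0478, in a range of 0.0478 to 0.696 over alternatives). Mafk had 6.37 to 12.8 CPM against 4.77 and 5.87 CPM, a difference of 0.73 (SE 0.34, limma adjusted p = 0.122). Fosb, Fosl2, Junb, Jund and Maff had differences between -0.44 and 0.26, and none passed.

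After doxorubicin Fosb and Fosl1 were higher in wild type than in p53-null cells. Atf3 was lower, and again could be tested only because it was above the filter in p53-null cells. Fosl1 was 172 to 263 CPM in treated wild type and 61.6 and 64.4 CPM in treated p53-null cells. This log2 difference of 1.73 (SE 0.22, limma adjusted p = 0.000717), a 3.31-fold higher level, passed under all 22 alternatives. Fosb was 21.0 to 28.3 CPM against 7.81 and 11.3 CPM, a difference of 1.30 (SE 0.30, limma adjusted p = 0.0215). Atf3 summed to 12 reads in treated wild type and to 98 in treated p53-null cells, a depth-scaled ratio of 4.53 (exact 95% counting interval 2.48 to 9.07) and a log2 difference of -1.32 (SE 0.28, limma adjusted p = 0.0134). Thus 2 members were higher and 1 lower, against 6.46% and 5.64% of all tested genes (12.1% together). Without overlap 4 members were higher (Fosb, Fosl1, Junb, Mafk) and 3 lower (Fosl2, Jun, Atf3), against 18.8% and 23.3% of all tested genes (42.0% together). Without treated p53-null library 2 the log2 difference was 1.00 for Fosb (adjusted p = 0.220) and -1.20 for Atf3 (0.114), with the single p53-null library left assumed to vary like the other groups. With only the treated libraries fitted Fosb stood at 1.30 (adjusted p = 0.0663). Over alternatives its adjusted p ran from 0.0147 to 0.315, and that of Atf3 from 0.00924 to 0.163.

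Fos overlapped between the genotypes after treatment, with 19.2 to 39.2 CPM in treated wild type around the 31.5 and 32.3 CPM of treated p53-null cells. The difference was -0.28 (SE 0.56, 95% interval -1.53 to 0.97). Its distance from the untreated difference is the Fos interaction of 1.61 given above. That did not pass in the fit without the replicate block (limma adjusted p = 0.274). Jun had 50.8 to 69.7 CPM against 84.8 and 120 CPM, with no overlap, a difference of -0.82 (SE 0.29) that did not pass (limma adjusted p = 0.0987). The differences were 0.44 for Mafk, 0.43 for Jund, 0.23 for Junb, -0.05 for Maff and -0.34 for Fosl2, and none passed. The untreated and treated comparisons of the genotypes use different libraries, but each shares its libraries with the response of a genotype.

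**Figure D4:**
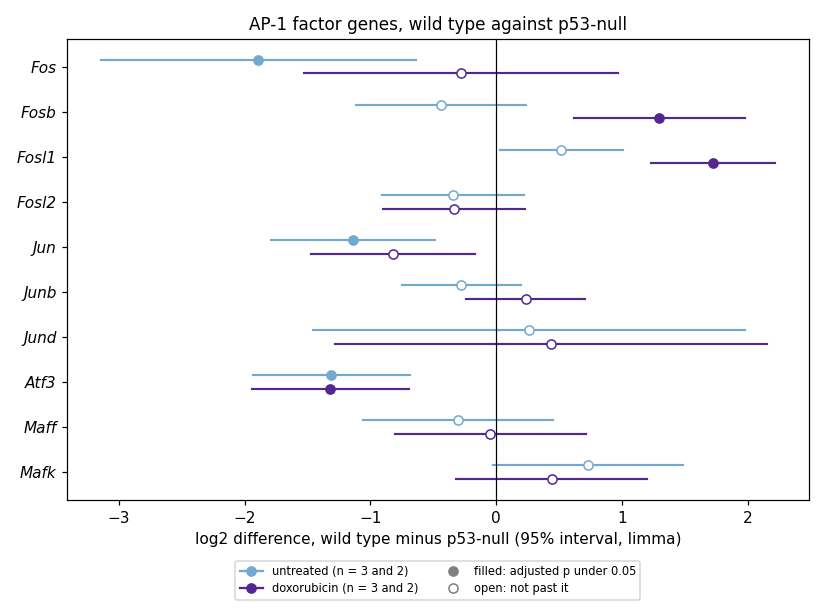
Fitted log2 difference between wild type and p53-null cells (horizontal axis, with 95% interval) for each member, in untreated and in treated cells. Filled points passed adjusted p under 0.05. Fos, Jun and Atf3 lie below 0 in untreated cells, and Fosb and Fosl1 lie above 0 in treated cells at 1.30 and 1.73.

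Ordered by mean level, Fosl1 ran from treated wild type (213 CPM, SD 46.1, n = 3) through untreated wild type (97.3, SD 12.3) to untreated (67.4, SD 2.54, n = 2) and treated (63.0, SD 1.96) p53-null cells. Only its first step passed the test between neighbours. Jun ran from untreated (141 CPM, SD 46.8) and treated p53-null cells (102, SD 24.8) to untreated (63.0, SD 13.6) and treated wild type (57.5, SD 10.5). For Fos the order was untreated p53-null (36.3 CPM, SD 5.33), treated p53-null (31.9, SD 0.588), treated wild type (27.4, SD 10.5) and untreated wild type (11.5, SD 8.42), and no neighbouring step passed in the fit without the replicate block. With the block the step between the wild-type groups passed, as given above.

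The genes whose log2 CPM followed a member most closely over the 10 libraries were sought among 5550 genes whose log2 CPM averaged 3 or more. The closest to Fosl1 were Gtf3c1 (Pearson r 0.99), Ddit4 (0.99) and Fah (0.99). Those closest to Fosb were 2510049I19Rik (0.98), Ubtd1 (0.97) and Pctk3 (0.96), and those closest to Jun were Tmem57 (0.99), Wdr12 (0.98) and Tcea1 (0.98). For Fos they were Yeats2 (0.95), BC005624 (0.94) and Irs2 (0.92). Junb had no match as close, with Bxdc2 (0.85) first. These correlations describe libraries that share genotype, treatment and depth, and each is the highest of many.

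The wider AP-1 pathway was described by 4 lists, chosen with earlier results of these data known. Their counts, set beside the shares of all tested genes, are therefore descriptions. List genes were not followed through the fits that left out libraries, so how far their calls rest on single libraries was not tested. Related bZIP factors, of which 20 were tested, had a median log2 difference of -0.07 in treated wild type. Between untreated cells 2 were higher in wild type (Creb3, Batf) and 4 lower (Creb1, Bach1, Nfe2l2, Atf2), against 12.7% and 19.8% of all tested genes. Batf passed the filter through wild-type libraries alone, the group where it was higher. Nfe2l2, encoding Nrf2, the partner of the small Mafs, had 17.3 CPM in untreated wild type and 55.2 CPM in untreated p53-null cells, a difference of -1.74 (SE 0.49, limma adjusted p = 0.0245).

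Upstream kinases, SRF and its cofactors had 2 of 26 tested genes higher and 2 lower in treated wild type, near the 7.97% and 4.64% of all tested genes, with a median of -0.18. Fbxw7, the ubiquitin ligase subunit that targets c-Jun, rose from 7.46 to 27.5 CPM (1.95, SE 0.42, limma adjusted p = 0.0144), and Rps6ka1, an ERK-activated kinase gene, from 23.1 to 48.0 CPM. Mapk11, encoding p38 beta, fell from 36.9 to 14.9 CPM (-1.30, SE 0.24, limma adjusted p = 0.00767), and Map2k7, a JNK kinase gene, from 109 to 69.5 CPM. Between untreated cells 3 were higher and 4 lower in wild type, against 12.7% and 19.8% of all tested genes, among them Mkl1 (0.97, SE 0.18) and Mkl2 (-0.99, SE 0.22), which encode SRF cofactors.

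Brakes of the pathway, the dual-specificity phosphatases, Sprouty and Spred proteins and the Zfp36 mRNA decay factors, were mostly lower in untreated wild type than in untreated p53-null cells. Of 17 tested, 9 were lower in wild type and 0 higher, against 19.8% and 12.7% of all tested genes, with a median of -1.20 beside -0.07 for all tested genes. Spry2 had 6.95 CPM in untreated wild type and 202 CPM in untreated p53-null cells, a difference of -4.83 (SE 0.32, limma adjusted p = 1.47e-05), and was lower after treatment too (-4.39, limma adjusted p = 1.92e-05). Zfp36l1 (-2.48, SE 0.39) and Dusp5 (-2.16, SE 0.34) were also lower. Dusp5 and Spred2 were under 1 CPM in every untreated wild-type library. They needed the p53-null libraries to pass the filter, and in untreated cells p53-null is the genotype where they were higher. Their calls there, counted among the 9, follow in part from the filter. In treated wild type 3 brakes rose and 1 fell, against 7.97% and 4.64% of all tested genes: Dusp2 (1.70, SE 0.39), Dusp6 (1.36, SE 0.31) and Spred2 (1.07, SE 0.24) were higher and Dusp16 (-1.01, SE 0.25) was lower. The median was 0.58 there and -0.63 in p53-null cells, where none passed. In the difference of responses 1 of 17 brakes passed, Spred2 (1.97, limma adjusted p = 0.0325), against 2.26% of all tested genes.

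Of 17 tested textbook AP-1 targets, 4 rose and 1 fell in treated wild type, against 7.97% and 4.64% of all tested genes, with a median of 0.07. Lif, a cytokine gene, rose from 1.06 to 5.04 CPM (1.87, SE 0.34, limma adjusted p = 0.00727). Hmox1, the heme oxygenase gene (1.66, SE 0.36), Plau, the urokinase gene (1.25, SE 0.27), and Ccl2, a chemokine gene (1.36, SE 0.38), were the others, and Mt2, a metallothionein gene, fell by 0.84 on the log2 scale (SE 0.21). Between untreated cells 5 were higher in wild type and 1 lower, against 12.7% and 19.8% of all tested genes (32.5% together). Timp1, a metalloproteinase inhibitor gene, was 9179 CPM in untreated wild type and 2623 CPM in untreated p53-null cells (1.79, SE 0.22, limma adjusted p = 0.00114), and Plau was 2.50 against 12.4 CPM (-2.11, SE 0.30). None of the 4 lists had a member past the threshold in p53-null cells with doxorubicin.

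**Figure D5:**
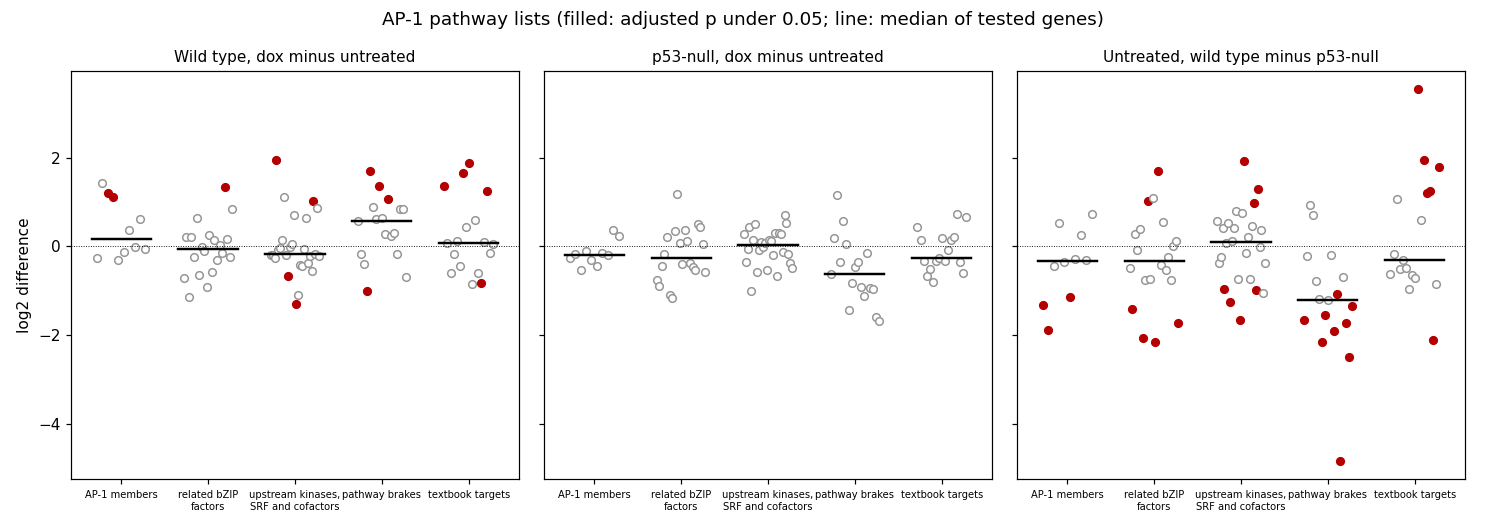
Log2 difference (vertical axis) of every tested gene of the AP-1 members and of 4 pathway lists (horizontal axis) in 3 comparisons. Filled points passed adjusted p under 0.05 and black lines are medians. The brakes have medians of 0.58, -0.63 and -1.20 in the panels from left to right, and their lowest point is Spry2 at -4.83.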

How the data were processed

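RNA values were deposited by the authors as 1 value per gene and library, on a scale close to log2, with lowest value -0.0425 in every library. The submitters' processing notes name DESeq and mm9 without a role or version; the aligner, annotation and strand setting were not given in the sources used here, so reads of antisense partners cannot be separated. The deposited values of all libraries follow a common function of reads over a factor for each library. Following it upward from a run of 100 consecutive reads recovered whole reads: 99.967% of 24113 distinct values lay within 0.01 of a whole read, and the other 8 stood at 178577 reads or more. Those top reads are approximate, which moves library totals slightly. Library sizes were adjusted by the trimmed mean of M values (TMM, trims 0.3 and 0.05) and log2(CPM + 0.5) was fitted with limma 3.58.1 in R 4.3.3, with 1 mean per group over all 10 libraries and two-sided tests. The added 0.5 CPM understates folds of genes near that level. Recovered reads are not a deposited count table, so no negative binomial model was fitted. The exact counting intervals for Atf3 and the limma-voom alternative did use the recovered reads. The fit was tested on simulated data.

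Pairing was checked by correlating deviations from group means between same-numbered treated and untreated libraries. In wild type r was 0.58, 0.34 and 0.61 for numbers 1, 2 and 3, so same-numbered libraries deviated alike. Libraries of different numbers were not compared in this way, so the check alone does not establish pairing. The 2 p53-null pairs (r 0.39) are too few for this check. All 10 members were named in each comparison, with up to 4 genes of each pathway list by p and the 3 closest genes to members of average log2 CPM of 3 or more; the text gives these for Fos, Fosb, Fosl1, Jun and, in part, Junb, and gives some list genes with less than their full values. The members and lists were chosen with earlier results of these data known. The p53 peak list, on mm9, was not used here because the annotation at hand is on GRCm38. A result on 1 gene of the related bZIP list is not reported here.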

Additional observations from a re-analysis of the deposited data

How the results depend on the processing

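Alternatives were other scalings, added CPM, filters, limma-voom, robust variance, only the groups compared, the replicate block and leaving out libraries. The count of members past the threshold in treated wild type (2) was 1 with only the groups compared and 1 without both p53-null libraries numbered 2, and 1 to 3 when single libraries were left out. In the difference of responses (0) it was 2 with the replicate block and 3 with the replicate block in wild type only, and 0 to 0 in the leave-one-out fits. Between untreated genotypes (3) it was 0 without both p53-null libraries numbered 2 and 0 to 4 leaving out 1 library. Between treated genotypes (3) it was 1 and 1 to 3. In p53-null cells it was 0 throughout. The replicate block changed no other member's call in the responses. It was not run for comparisons between genotypes, where a block within genotype removes the spread that those comparisons need.

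Values near 0 changed sign, none of them past the threshold. In treated wild type Jund was 0.016 with library size alone and 0.0044 with the deposited values, and leaving out 1 library gave -0.84 to 0.71 for Jund, -0.29 to 0.026 for Jun and -0.30 to 0.18 for Mafk. In p53-null cells Junb was 0.11 without both libraries numbered 2, and leaving out 1 library gave -0.45 to 0.13 for Junb and -0.44 to 0.039 for Jund. In the difference of responses Atf3 was 0.11 with library size alone and 0.036 with 1 CPM added, and Fosl2 was -0.051, -0.045 and -0.011 with median-of-ratios scaling, upper quartile scaling and the deposited values. Leaving out 1 library there gave -0.25 to 0.23 for Atf3, -0.12 to 0.12 for Fosl2, -0.051 to 0.66 for Jun and -0.64 to 0.90 for Jund. Between untreated genotypes Jund was -0.13 with library size alone, Junb was 0.0025 without both p53-null libraries numbered 2, and leaving out 1 library gave -0.23 to 0.68 for Jund and -0.57 to 0.0025 for Junb. Between treated genotypes Junb was -0.020 with library size alone, Maff was 0.0024, 0.0089 and 0.0068 with median-of-ratios scaling, upper quartile scaling and the deposited values, and leaving out 1 library gave -0.38 to 1.16 for Jund and -0.17 to 0.13 for Maff. The cause was not tested.

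Library size alone moved the median of all genes by -0.36 between untreated and -0.23 between treated genotypes and by 0.13 in the difference of responses, and median-of-ratios scaling moved it by 0.10 between untreated genotypes. With library size alone Junb between untreated genotypes (adjusted p = 0.0412) and Jun between treated ones (0.0428) also passed, both lower in wild type, and without untreated wild-type library 1 Mafk passed between untreated genotypes (0.0475). Fos between untreated genotypes stood at 0.0537 with no filter. Of all called genes 39.2% were higher in untreated wild type, against 13.4% with library size alone. The shares were 53.4% and 31.4% between treated genotypes, and 76.1% and 91.0% in the difference of responses, where upper quartile scaling gave 94.9%. The count of all genes past the threshold ran from 712 to 2573 around 1399 in treated wild type, 0 to 2 around 0 in p53-null cells, 0 to 1044 around 251 in the difference, 208 to 4343 around 3602 between untreated and 300 to 1766 around 1342 between treated genotypes. Atf3 rested on 3 to 9 reads in each wild-type library.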
